A study of Ovis aries with 115 samples.

Results

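The 150 genes described here were higher expressed in the sheep cervix when the follicular phase was reached by synchronisation (induced) than when it was reached in a natural cycle, in each of 4 breeds. They were chosen by measured values, from 15274 genes with a CPM (the count of a gene scaled to the total count of its library) of at least 1 in at least 10 of 77 follicular libraries, out of 27054 gene identifiers. For each breed the mean of log2(CPM + 0.5) over natural ewes was subtracted from that over induced ewes, the smallest of the 4 breed differences was taken as the score of the gene, and the 150 genes of highest score were kept. The difference between induced and natural follicular ewes is therefore given as a description and without a test.

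The series holds 1 RNA-seq library per ewe from post mortem cervix, in 4 breeds and 3 states. Induced follicular cervix came from 10 Belclare, 11 Suffolk, 8 Fur and 10 Norwegian White Sheep (NWS) ewes, natural follicular cervix from 10, 8, 10 and 10, and induced luteal cervix from 10, 10, 9 and 8. Belclare and Suffolk are Irish breeds of medium and low fertility after cervical insemination with frozen-thawed semen, and Fur and NWS are Norwegian breeds of high fertility, so breed origin and country cannot be told apart. The induced follicular ewes were multiparous, 4 to 5 years of age, and had carried an intravaginal progestagen (flugestone acetate) sponge, with equine chorionic gonadotropin given when it was taken out. The sources used here do not describe the handling of the natural follicular and the luteal ewes, and luteal ewes of a natural cycle were not analysed here.

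In the follicular phase the cervix is exposed to high oestrogen and low progesterone, and it becomes more open and produces more fluid mucus. In the luteal phase progesterone from the corpus luteum dominates and the mucus thickens. Synchronisation with a progestagen sponge and equine chorionic gonadotropin sets the time of oestrus and ovulation, and the sheep cervix, with its epithelium, stroma and smooth muscle, responds to both hormones.

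Total counts per library ranged from 12238996 to 31261671, with a median of 17835128. Gene symbols were known for 15 of the 150 genes, from the names given in the study's supplementary lists, and the other 135 are known by Ensembl identifier alone. These lists name 1349 of the 15274 tested genes and were drawn up from comparisons of other breeds with Suffolk, so the named genes do not stand for the unnamed ones. Desmin (DES), an intermediate filament of muscle, ranged from 17.8 to 6623 CPM over Irish ewes, and 8 Belclare or Suffolk libraries exceeded 1000 CPM. These 8 are called muscle-rich here by their DES level alone, and their muscle content was not measured. COX-1, a mitochondrial gene, lay between 26.1 and 50.7 CPM in the 27 Fur ewes and above 1000 CPM in Irish ewes, and NWS natural follicular ewes 4 and 10 lay at the Fur level, at 36.3 and 31.5 CPM. Ewe 8 of the Fur luteal group and ewe 7 of the Belclare and of the Suffolk luteal groups stood apart from their group in 3 or more of the genes named here. Counts without these libraries are given beside some of the results they change. NWS natural follicular ewe 5 had the lowest mean log2 level over all tested genes, 3.64, and the next lowest library lay at 4.03. This ewe was kept in every comparison, so its part in the NWS values was not tested.

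The differences that chose the genes were small beside the spread between ewes. The score was 0.73 (log2) for the first gene, ENSOARG00000011377, 0.49 for the second, ENSOARG00000006710, and 0.17 at rank 50. The last gene inside the list had a score of 0.0990 and the first one outside it 0.0983. Over the 150 genes the median difference between induced and natural ewes was 0.19 in Belclare, 0.29 in Suffolk, 0.33 in Fur and 0.31 in NWS, whereas the median pooled SD of ewes within these groups was 0.66, 0.63, 0.59 and 0.62. Belclare gave the smallest of the 4 differences for 70 genes, Suffolk for 31, Fur for 22 and NWS for 27. A difference above 1.5-fold was reached in Belclare by 8 genes, in Suffolk by 30, in Fur by 23 and in NWS by 22, against 1.03%, 2.89%, 2.8% and 2.4% of all tested genes. A single gene, ENSOARG00000011377, reached it in all 4 breeds, and 92 genes reached it in none. No gene of the list had every induced ewe above every natural ewe in any breed, a separation that 0.825% of tested genes showed in Fur and 0.0% in each other breed.

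**Figure D1:**
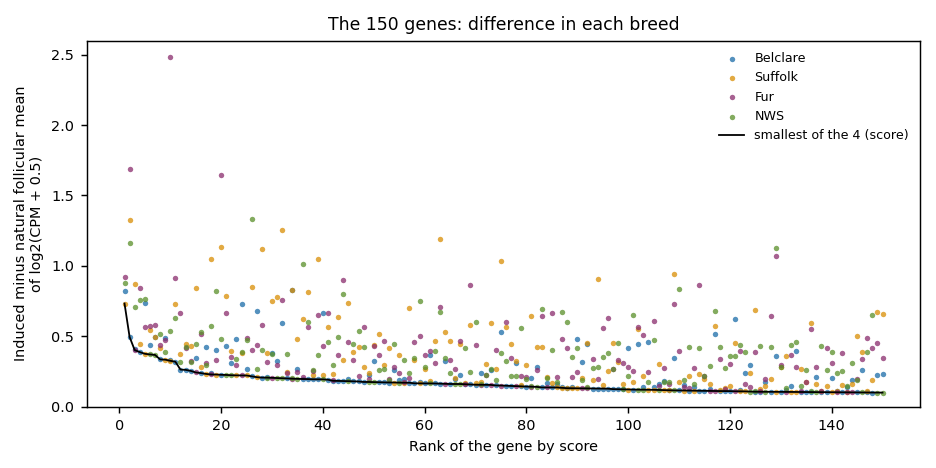
Induced minus natural follicular mean of log2(CPM + 0.5) on the vertical axis for each of the 150 genes, ordered by score on the horizontal axis, with 1 coloured point per breed and a black line for the score. The line falls from 0.73 at rank 1 to 0.0990 at rank 150, and most breed differences lie below 1.

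A difference of the same sign in every breed was itself uncommon. Of the tested genes, 781 (5.11%) were higher and 1557 (10.2%) lower in induced than natural ewes of all 4 breeds, so the list holds the 150 highest of 781. Which genes entered it depended on the averaging and on the libraries used. With medians over ewes in place of means, 60 of the 150 genes were chosen again and 96 were still higher in all 4 breeds. Without the 8 Irish libraries over 1000 CPM of DES, 76 were chosen again and 121 were still higher in all 4 breeds, and the median difference in Suffolk was 0.20 in place of 0.29. By mean log2 level DES itself was lower in induced than natural ewes by 1.08 in Belclare and 1.04 in Suffolk, and differed by -0.02 in Fur and 0.10 in NWS. The Suffolk medians were alike, at 186 CPM in induced and 185 in natural ewes, with 0 of 11 and 3 of 8 libraries over 1000 CPM. In Belclare the medians were 121 and 281 CPM, with 1 of 10 and 2 of 10 libraries over 1000 CPM. Of 6 smooth muscle markers, the 3 with an identifier (ACTG2, DES and ACTC1) summed to between 29.05 and 11340 CPM in induced follicular ewes, between 69.4 and 15566 in natural follicular ewes and between 87.7 and 8829 in luteal ewes, and in no library to 0. The part of muscle content in the choice of the genes was not tested, and no other 8 libraries were left out for comparison. Without NWS natural ewes 4 and 10, 131 of the 150 were chosen again. NWS natural ewe 5, of low level over all tested genes, was left out in none of these choices. Induced lay above natural for 56.9% of tested genes in NWS, against 41.8% in Belclare, 43.6% in Suffolk and 42.4% in Fur. In bulk tissue, fewer cells of a type and less RNA per cell cannot be told apart.

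ENSOARG00000011377, the gene of highest score, ranged over induced follicular ewes from 0.156 to 22.7 CPM with a median of 7.92, and over natural follicular ewes from 0.142 to 18.9 with a median of 5.76. The groups overlapped almost throughout, with 28 of 39 induced ewes above the natural median and 2 above every natural ewe. In luteal ewes it ranged from 0 to 13.5 CPM with a median of 4.71. Its luteal level differed from the follicular level by -0.96 ± 0.32 (log2, SE; edgeR quasi-likelihood test, adjusted p = 0.00524), and among single breeds only the Suffolk difference passed the threshold (-1.84 ± 0.64, adjusted p = 0.016 by the same edgeR test).

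ENSOARG00000006710, the second gene, was abundant at oestrus. It ranged from 65.9 to 5044 CPM in induced follicular ewes (median 887), from 24.2 to 3343 in natural follicular ewes (median 340) and from 1.93 to 832 in luteal ewes (median 26.5). Of the 37 luteal ewes, 17 lay below the lowest of the 77 follicular ewes. The luteal level was lower by 3.90 ± 0.39 (log2, SE; edgeR, adjusted p = 7.1e-16), and lower in each breed, with log2 differences of -5.35 in Belclare, -3.17 in Suffolk, -4.30 in Fur and -2.80 in NWS.

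The luteal ewes took no part in the choice of genes, and ask where synchronised luteal cervix stood relative to both kinds of follicular cervix. Luteal ewes were compared with the mean of the follicular ewes of the same breed, induced and natural ewes counting alike. The difference was averaged over the 4 breeds. With these weights it is uncorrelated with the difference that chose the genes, if ewes vary equally. A true excess in induced ewes would still raise the follicular mean, and all luteal ewes were induced. Luteal cervix expressed 70 of the 150 genes (46.7%) lower and 7 (4.67%) higher, with an adjusted p under 0.05 and a fold change above 1.5 by edgeR's quasi-likelihood test, against 11.4% of all tested genes lower and 10.9% higher. The median log2 difference was -0.50 over the 150 genes and 0.00 over all tested genes. Without the 8 muscle-rich Irish libraries the counts were again 70 lower and 7 higher, and without the 3 luteal libraries that stood apart 72 and 7. Some marker levels moved with phase as well, with no library at 0 for any of these sums. The macrophage markers GRN and APOE, 2 of 5 listed, summed to medians of 554 CPM in induced follicular, 571 in natural follicular and 368 in luteal ewes. The secretory epithelium markers MUC5AC, SCGB2A1 and MUC5B, 3 of 4 listed, gave 92.0, 76.2 and 53.8 CPM, and the endothelial marker VWF, 1 of 3 listed, 637, 685 and 839 CPM. The smooth muscle markers ACTG2, DES and ACTC1, 3 of 6 listed, gave medians of 718, 3309 and 1032 CPM over all breeds. In Fur they gave 4641, 4901 and 2621 CPM and in NWS 5629, 5236 and 2553. In Belclare they gave 201.0, 545.7 and 546.5 CPM and in Suffolk 277, 450 and 622. The luteal median was thus the lowest only in the Norwegian breeds. ACTG2 and ACTC1 were lower in luteal cervix by 1.34 ± 0.30 and 2.31 ± 0.35 (log2, SE by edgeR, adjusted p = 5.31e-05 and 8.21e-09). DES, at -0.50 ± 0.31, did not pass (edgeR, adjusted p = 0.133). The neutrophil markers CD177, AQP9 and CXCR2, 3 of 5 listed, summed to 8.20, 11.03 and 65.5 CPM and did not move together, since CD177 and CXCR2 were lower in luteal cervix by 1.35 ± 0.34 and 1.59 ± 0.21 (edgeR, adjusted p = 0.000268 and 1.86e-10) and AQP9 was higher by 4.06 ± 0.31 (edgeR, adjusted p = 5.37e-22). The part of these cell types in the result was not tested. Eligibility required expression in follicular libraries, so genes expressed in luteal cervix alone could not enter the list.

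**Figure D2:**
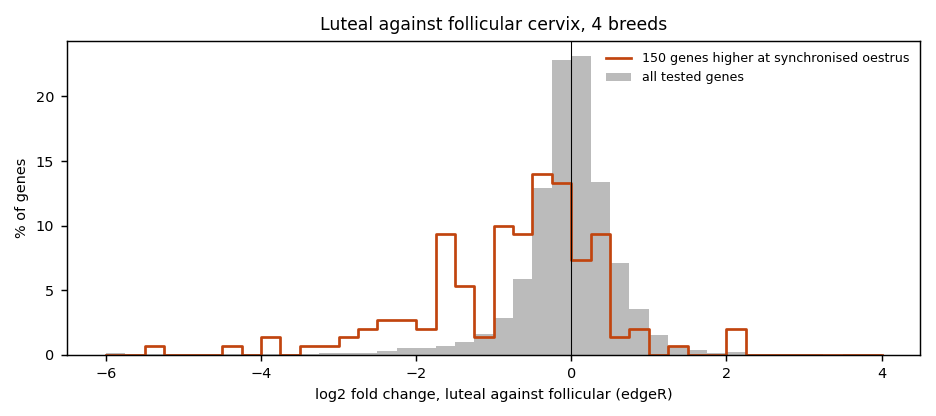
Share of genes (%, vertical axis) by log2 fold change of luteal against follicular cervix (horizontal axis, bins of 0.25), for all 15274 tested genes in grey bars and for the 150 genes as a red line. The grey bars centre on 0.00 and the red line is shifted to the left, with a median of -0.50. A total of 14 tested genes beyond the axis are drawn in the end bins.

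The shift was seen in every breed. Luteal cervix was lower for 71 genes in Belclare (12.7% of tested genes), 64 in Suffolk (8.92%), 64 in Fur (10.7%) and 51 in NWS (9.79%), and higher for 17 (11.5%), 8 (9.27%), 4 (10.1%) and 8 (9.76%). In either direction 24.1%, 18.2%, 20.7% and 19.5% of tested genes passed. The 4 breed comparisons use separate ewes. In all 4, 42 of the 150 genes passed as lower, against 4.64% of tested genes, and 64 passed in none. Of the 70 genes lower over all breeds, 46 were lower by more than 2-fold, a limit not counted over all tested genes. The other 631 genes that were higher in induced ewes of all breeds, but below the list's last score, held 157 (24.9%) lower and 27 (4.28%) higher in luteal cervix. The 150 genes of highest score in the opposite sense, natural above induced, held 9 lower and 68 (45.3%) higher. These sets are given side by side and the difference between them was not tested. The 150 genes had a median level of 2.92 in follicular ewes (mean log2(CPM + 0.5)), against 4.37 over all tested genes.

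The luteal means were also set beside the natural and the induced follicular means separately, as a description, since the rule used both and fixed their order. On log2(CPM + 0.5) from total counts and averaged over breeds, 93 genes had a luteal mean below the natural follicular mean, 24 lay between natural and induced, and 33 lay above induced. These positions averaged over breeds were not counted over all tested genes. By breed, 97 genes lay below the natural mean in Belclare, 88 in Suffolk and 102 in Fur, against 37.8%, 38.8% and 37.2% of tested genes. In NWS 72 did, against 27.7%, and the median luteal minus natural difference of the 150 genes was 0.02 there. The NWS natural mean includes ewe 5, of low level over all tested genes, and the position without this ewe was not tested. In each of the 4 breeds separately, 64 genes lay below the natural mean, against 17.4% of tested genes. The induced mean was exceeded in each breed by 14, a position not counted over all tested genes. On this scale the median tested gene was 0.15 higher in luteal than follicular cervix and the median of the 150 genes was 0.33 lower, so the position is given against that shift. With TMM-normalised library sizes 77 genes lay below the natural mean in every breed, against 29.5% of tested genes. By breed 106 then did in Belclare, 91 in Suffolk, 115 in Fur and 97 in NWS, against 49.7%, 48.9%, 51.3% and 48.8%.

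The mean level over the 150 genes in single ewes showed the same order of states and how far they overlapped. In Belclare it was 3.42 ± 0.21 (SD, n = 10) in induced follicular, 3.17 ± 0.28 (n = 10) in natural follicular and 2.74 ± 0.19 (n = 10) in luteal ewes. Suffolk gave 3.54 ± 0.21 (n = 11), 3.16 ± 0.33 (n = 8) and 2.92 ± 0.23 (n = 10). Fur gave 3.43 ± 0.24 (n = 8), 3.04 ± 0.28 (n = 10) and 2.67 ± 0.25 (n = 9). In NWS the natural follicular value, 2.92 ± 0.24 (n = 10), and the luteal one, 2.79 ± 0.19 (n = 8), differed by less than their SDs, below 3.28 ± 0.20 (n = 10) in induced follicular ewes. The lowest single value, 2.04, was that of Fur luteal ewe 8, in which DES was at 6715 CPM.

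**Figure D3:**
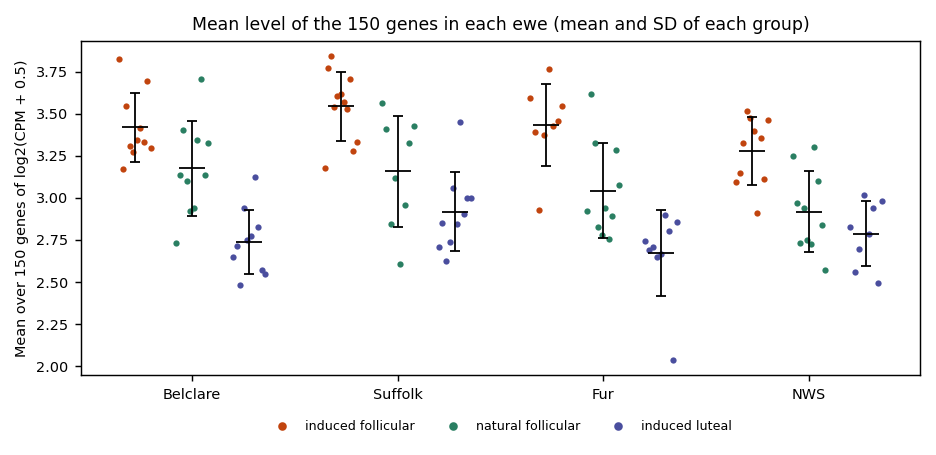
Mean of log2(CPM + 0.5) over the 150 genes (vertical axis) in each ewe, by breed and state, with 1 point per ewe and bars for the group mean and SD. Induced follicular means lie between 3.28 and 3.54, natural ones between 2.92 and 3.17, and luteal ones between 2.67 and 2.92, and the follicular groups overlap in every breed. The gap between induced and natural ewes is fixed by the choice of the genes.

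Among secreted proteins of the list, ANGPTL2, FSTL5 and CCL26 were lower expressed in luteal cervix. ANGPTL2, a secreted angiopoietin-like protein with roles in inflammation and tissue remodelling, ranged from 43.7 to 928 CPM over 77 follicular ewes (median 185) and from 17.6 to 260 over 37 luteal ewes (median 38.8). Of the luteal ewes, 24 lay below every follicular ewe. The log2 difference was -2.23 ± 0.16 (SE; edgeR, adjusted p = 8.86e-24), and all 4 breeds passed, from -2.97 in Belclare to -1.84 in NWS. Between induced and natural ewes the medians were 201 and 144 CPM, and the breed differences were 0.16, 0.47, 0.33 and 0.24 in Belclare, Suffolk, Fur and NWS (log2); without the muscle-rich libraries those of Belclare and Suffolk were 0.13 and 0.08.

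FSTL5 encodes a secreted follistatin-like protein. It ranged from 0 to 15.4 CPM over follicular ewes, with a median of 2.49 in induced and 1.23 in natural ewes, and from 0 to 0.834 over luteal ewes, of which 23 of 37 had no count. All 37 luteal ewes lay below the follicular median of 1.84 CPM. No Belclare luteal library had a count, so that FSTL5 was at least 115-fold higher in Belclare follicular cervix, taking 3 counts over the luteal group as the floor. Summed over ewes, it was at 4.75 CPM in follicular and 0.219 in luteal cervix in Suffolk, at 1.31 and 0.104 in Fur and at 3.84 and 0.0660 in NWS. The edgeR fit gave an adjusted p of 1.06e-18, and its log2 difference of -5.49 rests in part on a Belclare group at 0. The induced minus natural difference was largest in NWS (1.33) and smallest in Belclare (0.21).

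CCL26 encodes an eotaxin chemokine that attracts eosinophils through the receptor CCR3. It ranged from 0.0963 to 47.7 CPM over follicular ewes (median 3.75) and from 0.298 to 9.45 over luteal ewes (median 2.62), so the states overlapped widely. The luteal level was lower by 1.51 ± 0.30 (log2, SE; edgeR, adjusted p = 4.3e-06), and passed in Belclare (-2.77) and Suffolk (-1.79). In Fur the luteal median of 2.90 CPM lay between those of natural (1.48) and induced follicular ewes (3.36). Over luteal ewes CCL26 moved with DES (r = 0.55 over 37 ewes after removing breed means, a description that shares library and depth).

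**Figure D4:**
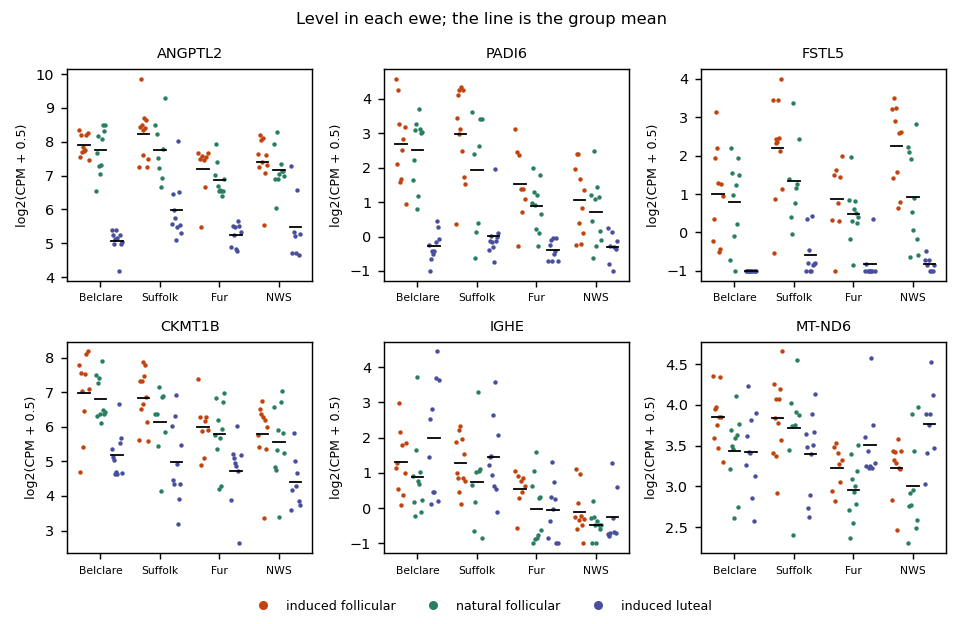
Level of 6 named genes, log2(CPM + 0.5), in each ewe by breed and state, with a black line for the group mean. ANGPTL2, PADI6, FSTL5 and CKMT1B have their luteal points mostly below both follicular groups, FSTL5 with 23 of 37 luteal ewes at 0 counts, whereas IGHE is lower in Norwegian than Irish breeds and MT-ND6 has overlapping states.

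Transporters and channels among the named genes were also lower in luteal cervix. MFSD2A, a transporter that takes up lysophosphatidylcholine carrying long-chain fatty acids, ranged from 15.1 to 339 CPM over follicular ewes (median 87.9) and from 4.56 to 175 over luteal ewes (median 31.3). The luteal level was lower by 1.32 ± 0.19 (log2, SE; edgeR, adjusted p = 1.94e-09), passing in Belclare, Suffolk and Fur. In NWS, luteal ewes ranged from 19.3 to 175 CPM and the difference did not pass. NWS also showed the largest difference between induced and natural ewes (0.82).

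FXYD4, a small regulator of the sodium and potassium pump, was uneven between ewes. Its follicular range was 0 to 113.9 CPM (median 1.89) and its luteal range 0 to 16.8 (median 0.511). The luteal difference was -1.59 ± 0.42 (log2, SE; edgeR, adjusted p = 0.000537), and among breeds only Suffolk passed (-3.93). In Belclare the luteal median, 3.31 CPM, lay between the natural (2.78) and induced (3.67) ones. Without the muscle-rich libraries FXYD4 was the only named gene no longer higher in induced ewes of all 4 breeds, with induced minus natural differences of -0.02 in Belclare and -0.62 in Suffolk.

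SLC16A5 and KCNK6 varied less from ewe to ewe. SLC16A5, of the monocarboxylate transporter family, ranged from 6.69 to 29.1 CPM over follicular ewes (median 12.6) and from 6.14 to 27.7 over luteal ewes (median 9.15), with 32 of 37 luteal ewes below the follicular median. Its luteal level was lower by 0.63 ± 0.08 (log2, SE; edgeR, adjusted p = 4.69e-11), passing in Belclare and Fur. KCNK6, a potassium channel of the pore-domain family, ranged from 3.12 to 17.1 CPM over follicular ewes (median 10.7) and from 1.40 to 10.5 over luteal ewes (median 6.54), and all 37 luteal ewes lay below the follicular median. It was lower by 0.82 ± 0.08 (log2, SE; edgeR, adjusted p = 4.61e-15), passing in every breed.

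Of the enzymes, PADI6, CKMT1B and DAGLA were lower in luteal cervix. PADI6 belongs to the peptidylarginine deiminases and is best known from the oocyte. It ranged from 0.142 to 23.4 CPM over follicular ewes, with medians of 3.81 in induced and 1.82 in natural ewes, and from 0 to 3.40 over luteal ewes (median 0.341). The luteal level was lower by 3.43 ± 0.31 (log2, SE; edgeR, adjusted p = 7.56e-18) and passed in all 4 breeds, from -4.41 in Belclare to -2.58 in NWS.

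CKMT1B, a mitochondrial creatine kinase that shares much of its sequence with a near-identical copy in other mammals and is therefore uncertain, ranged from 9.72 to 290 CPM over follicular ewes (median 81.7) and from 5.71 to 122 over luteal ewes (median 28.9). It was lower by 1.57 ± 0.20 (log2, SE; edgeR, adjusted p = 1.2e-11) and passed in all 4 breeds. DAGLA, the lipase that makes the endocannabinoid 2-arachidonoylglycerol (2-AG), ranged from 3.79 to 72.7 CPM over follicular ewes (median 24.1) and from 6.74 to 33.1 over luteal ewes (median 15.7). It was lower by 0.85 ± 0.10 (log2, SE; edgeR, adjusted p = 1.32e-12), again in all 4 breeds. Its difference between induced and natural ewes was among the smallest of the list, 0.10 in Belclare and 0.11 in Fur. AC008397.1, known by a clone name alone, had follicular and luteal medians of 94.7 and 65.9 CPM and was lower in luteal cervix by 0.90 ± 0.14 (log2, SE; edgeR, adjusted p = 1.35e-08).

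The other 4 named genes did not pass as lower or higher in luteal cervix over all breeds. TNFRSF6B, a decoy receptor that binds FAS ligand, ranged from 1.15 to 19.0 CPM over follicular ewes and from 1.84 to 15.4 over luteal ewes, and its difference of -0.41 ± 0.13 (log2, SE; edgeR, adjusted p = 0.00319) was below the fold threshold, though it passed in Suffolk (-0.70 ± 0.25, adjusted p = 0.0199 by the same edgeR test). MT1X, a metal-binding metallothionein whose reads may be split with other metallothioneins, ranged from 0.555 to 75.5 CPM over follicular ewes and from 1.52 to 65.8 over luteal ewes, with a difference of -0.04 ± 0.21. MT-ND6, a complex I subunit encoded by the mitochondrial genome on the strand opposite to most of its genes, had medians of 10.3 CPM in follicular and 10.6 in luteal ewes and a difference of -0.03 ± 0.10. Whether counting used strand is not given in the sources used here, so its reads and those of the opposite strand cannot be told apart. IGHE, the constant part of the immunoglobulin E heavy chain, which resembles other immunoglobulin genes, ranged from 0 to 12.7 CPM over follicular and from 0 to 21.3 over luteal ewes, with a difference of 0.34 ± 0.31 (adjusted p = 0.316 by edgeR), and it passed as higher in Belclare (1.31 ± 0.53, edgeR, adjusted p = 0.034). The differences of MT1X and MT-ND6 are smaller than the shift of 0.15 between scales, so no direction is given for them.

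Some unnamed genes, singled out after their values were seen, also differed widely in luteal cervix. ENSOARG00000016784 ranged from 0 to 38.5 CPM over follicular ewes (median 9.84) and from 0 to 8.76 over luteal ewes (median 0.409), a log2 difference of -4.32 ± 0.34 (edgeR, adjusted p = 3.23e-21). ENSOARG00000019673, of high level, had medians of 834 CPM in induced follicular, 672 in natural follicular and 75.2 in luteal ewes, a log2 difference of -3.03 ± 0.24 (edgeR, adjusted p = 5.26e-21). The 7 genes higher in luteal cervix were all unnamed. In each of the 4 breeds 3 of the 150 genes were higher, which was not counted over all tested genes. One of these, ENSOARG00000006091, ranged from 0 to 10.4 CPM over follicular ewes (median 1.37) and from 0.470 to 56.1 over luteal ewes (median 7.98), with 12 luteal ewes above every follicular ewe. Its log2 difference was 2.25 ± 0.22 (edgeR, adjusted p = 7.42e-16). ENSOARG00000006959 had medians of 89.8 CPM in follicular and 338 in luteal ewes (1.44 ± 0.32, edgeR, adjusted p = 4.5e-05). Its induced minus natural difference of 2.48 in Fur, the largest of the list, came with 1 induced Fur ewe at 10128 CPM against a group median of 139. Of the 8 induced Fur ewes, 7 lay above the natural Fur median and 5 above every natural Fur ewe.

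Breed was compared first among the 37 luteal ewes, none of which took part in the choice of genes. Against Suffolk, Belclare ewes had 14 of the 150 genes lower (2.99% of tested genes) and 3 higher (2.06%), Fur ewes 29 lower (7.61%) and 5 higher (6.93%), and NWS ewes 3 lower (1.8%) and 3 higher (2.77%), by edgeR's quasi-likelihood test and the same thresholds. In either direction this was 5.05% of tested genes for Belclare, 14.5% for Fur and 4.57% for NWS. These comparisons share the Suffolk ewes. With the replicate number as a block the Belclare counts were 5 lower (1.79%) and 1 higher (1.01%). Without the muscle-rich Irish libraries they were 13 lower (4.69%) and 5 higher (3.13%). Without the 3 luteal libraries that stood apart Belclare had 20 lower (5.35%) and 5 higher (3.63%). Fur then had 20 lower (6.1%) and 5 higher (6.04%), and NWS 4 lower (2.64%) and 3 higher (3.1%). SLC16A5 passed as lower in all 3 breeds than in Suffolk, by 0.73 ± 0.17 in Belclare, 0.82 ± 0.18 in Fur and 0.59 ± 0.18 in NWS (log2, SE; edgeR, adjusted p = 0.0134, 0.000628 and 0.0287). Its luteal medians were 12.6 CPM in Suffolk, 8.40 in Belclare, 8.38 in Fur and 9.28 in NWS, and the ranges overlapped. Without the 3 libraries the SLC16A5 difference of NWS, -0.41, no longer passed (edgeR, adjusted p = 0.0564), while those of Belclare and Fur did. FSTL5 was lower in Belclare than in Suffolk by 4.96 ± 1.41 (log2, SE by edgeR, adjusted p = 0.0338), a value that rests on a Belclare group without counts. KCNK6, MFSD2A and ANGPTL2 were among the named genes lower in Fur, with log2 differences of -0.75 ± 0.17, -1.16 ± 0.42 and -1.05 ± 0.34 (edgeR, adjusted p = 0.00132, 0.0328 and 0.0163). Without the 3 libraries KCNK6 still passed at -0.64 ± 0.12, and MFSD2A at -0.74 ± 0.40 and ANGPTL2 at -0.64 ± 0.29 did not (edgeR, adjusted p = 0.000208, 0.158 and 0.088).

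The Norwegian breeds together were then compared with the Irish breeds, separately in luteal and in follicular ewes. Over follicular ewes, induced and natural counting alike, Norwegian ewes had 33 of the 150 genes lower (6.32% of tested genes) and 6 higher (7.67%), with a median log2 difference of -0.14. Without the muscle-rich Irish libraries 36 were lower (7.8%) and 6 higher (9.51%). Group medians of DES lay between 121 and 463 CPM in Irish ewes and between 1787 and 3320 in Norwegian ewes, and the part of muscle content in the breed differences was not tested. Over luteal ewes 22 were lower (5.46%) and 7 higher (6.85%), and without the muscle-rich Irish libraries 24 (6.06%) and 8 (7.81%). The luteal count of lower genes rested on few libraries, with 12 lower (4.99% of tested genes) without Belclare ewe 7, 17 (4.5%) without Fur ewe 8 and 19 (5.24%) without Suffolk ewe 7. Without all 3 there were 9 lower, against 4.1% of tested genes, and 9 higher, against 6.36%. A fit with replicate number as block gave 11 lower (4.63%) and 6 higher (6.94%). Of the genes lower in both phases there were 12, which is 36.4% of the follicular and 54.5% of the luteal ones, and 3 were higher in both. The overlap over all tested genes was not counted, so these shares are not read as particular to the 150 genes. A difference of the same sign in both phases was seen for 112 of the 150 genes, against 82.2% of tested genes.

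**Figure D5:**
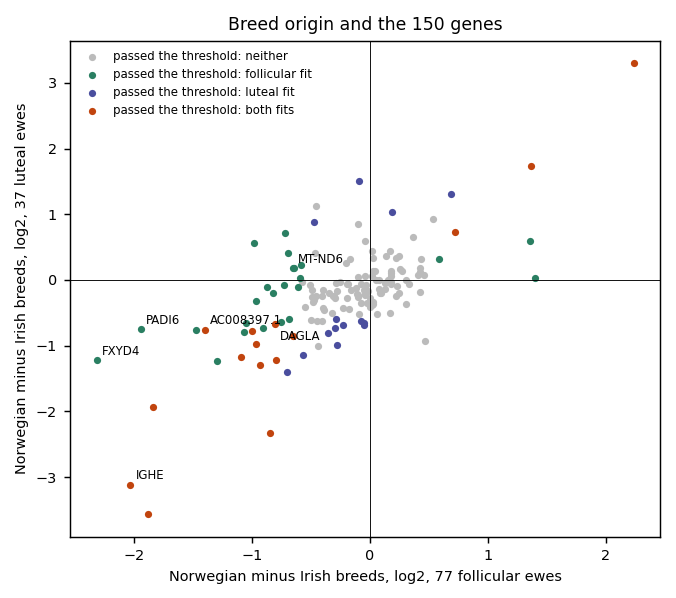
Norwegian minus Irish log2 difference of each of the 150 genes over 77 follicular ewes (horizontal axis) and over 37 luteal ewes (vertical axis), coloured by the fits in which the gene passed. The 12 genes lower in both fits lie in the lower left, IGHE among them at -2.03 and -3.12, and 3 higher in both lie in the upper right.

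IGHE showed the widest difference between Norwegian and Irish breeds of the named genes in luteal ewes. Its luteal levels ranged from 0.590 to 21.3 CPM in Belclare (median 3.77), from 0.433 to 11.5 in Suffolk (median 2.03), from 0 to 1.98 in Fur (median 0.474) and from 0.0727 to 1.92 in NWS (median 0.116). The Irish and Norwegian ranges overlapped, and the Norwegian level was lower by 3.12 ± 0.59 (log2, SE; edgeR, adjusted p = 7.15e-05). Over follicular ewes it was lower by 2.03 ± 0.36 (adjusted p = 7.26e-07 by edgeR). Without the 3 luteal libraries that stood apart the luteal difference was -2.64 (edgeR, adjusted p = 0.000333). ENSOARG00000002238, singled out after its values were seen, was lower by 3.56 ± 0.64 in luteal and by 1.88 ± 0.36 in follicular Norwegian ewes (log2, SE; edgeR, adjusted p = 4.35e-05 and 3.56e-06), with 1 Belclare luteal ewe at 191 CPM against a group median of 5.25.

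DAGLA and AC008397.1 were the other named genes lower in Norwegian ewes in both phases. DAGLA was lower by 0.81 ± 0.11 in follicular and 0.67 ± 0.12 in luteal ewes (log2, SE; edgeR, adjusted p = 7.53e-10 and 4.1e-05), with luteal medians of 19.0 and 17.6 CPM in Belclare and Suffolk and 13.8 and 12.8 in Fur and NWS. AC008397.1 was lower by 1.40 ± 0.16 in follicular and 0.76 ± 0.19 in luteal ewes (edgeR, adjusted p = 4.07e-13 and 0.00186), and its luteal difference of -0.56 without the 3 luteal libraries was below the fold threshold. Of the unnamed genes, ENSOARG00000009828 was higher in Norwegian ewes, with induced follicular medians of 11.9 CPM in Fur and 7.44 in NWS against 1.02 in Belclare and 1.11 in Suffolk. It was higher by 2.24 ± 0.42 in follicular and 3.30 ± 0.91 in luteal ewes (log2, SE; edgeR, adjusted p = 3.2e-06 and 0.00419), and 15 of 37 luteal ewes had no count of it.

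Another 7 named genes, 6 of them given here and MT-ND6 further on, passed as lower in Norwegian ewes in the follicular phase and not in the luteal phase. FXYD4 differed by -2.32 ± 0.45, PADI6 by -1.94 ± 0.29 and CCL26 by -0.99 ± 0.31 (log2, SE; edgeR, adjusted p = 6.49e-06, 6.78e-09 and 0.00469). For CKMT1B, ANGPTL2 and MFSD2A the differences were -0.91 ± 0.21, -0.82 ± 0.16 and -0.61 ± 0.20 (edgeR, adjusted p = 9.79e-05, 6.96e-06 and 0.00754). PADI6, for instance, had induced follicular medians of 5.95 CPM in Belclare and 8.31 in Suffolk against 2.12 in Fur and 1.65 in NWS, and luteal medians between 0.254 and 0.419 CPM in all 4 breeds. CKMT1B missed the threshold in luteal ewes at -0.74 ± 0.31 (edgeR, adjusted p = 0.0523) and passed it there by the DESeq2 Wald test (adjusted p = 0.0326). That these genes passed in one phase and not in the other does not show that the breed difference changed with phase.

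The change of the breed difference with phase was tested as an interaction, and 2 of the 150 genes passed (0.321% of tested genes in either direction), with 29 of the 150 and 1640 of the 15274 tested genes at an unadjusted p under 0.05. MT-ND6 was lower in Norwegian ewes in the follicular phase (-0.65 ± 0.11 log2, edgeR, adjusted p = 2.34e-07) and differed by 0.18 ± 0.16 in the luteal phase. The interaction was 0.83 ± 0.19 (edgeR, adjusted p = 0.0167). Its luteal range was 5.48 to 18.2 CPM in Belclare, 5.69 to 17.0 in Suffolk, 8.89 to 23.3 in Fur and 7.68 to 22.5 in NWS. ENSOARG00000000313 was the other, at 0.84 ± 0.22 (edgeR, adjusted p = 0.0476), and was no longer past the threshold without the 3 luteal libraries (adjusted p = 0.141) or with the replicate number as a block (adjusted p = 0.0607).

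Across luteal ewes, with breed means removed, the 150 genes moved together only weakly. The median correlation between pairs of them over 37 ewes was 0.10, against 0.04 over pairs of all tested genes, which share library and depth in the same way. The 70 genes lower in luteal cervix gave 0.11 among themselves, the other 80 genes gave 0.11, and pairs across these sets gave 0.09. MFSD2A and ANGPTL2 were the named pair of highest correlation (r = 0.64). With DES the median correlation was -0.19 over the 150 genes and -0.06 over all tested genes, and 29.3% of the 150 were positively correlated with it, against 44.4% of tested genes. AC008397.1 was the named gene most negatively correlated with DES (r = -0.49). The part of muscle content in these values was not tested.

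Of 749 symbols in 14 gene lists on hormone response, immunity, muscle, matrix, epithelium, mucus, transport and metabolism, 104 had a tested identifier and 1, CKMT1B, was among the 150 genes. Among these 104, luteal cervix expressed 40 lower and 14 higher, against 11.4% and 10.9% of all tested genes, and 6 were higher in induced than natural ewes of all 4 breeds, against 5.11% of all tested genes. Of 13 tested genes of oestrogen and progesterone response, 9 were lower and 1 higher in luteal cervix, and 3 were higher in induced ewes of all 4 breeds without reaching the list. Only genes with a known symbol could be counted, and of the 1349 named tested genes 21.0% were lower in luteal cervix.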

How the data were processed

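The 150 genes, the gene and marker lists and the tests were chosen with earlier results of these data known. The authors deposited raw counts per Ensembl gene (TruSeq stranded mRNA libraries; STAR 2.6.1b alignment to Oar_v3.1, featureCounts of Subread 1.6.3 on uniquely mapped reads), and these counts were used unchanged. Total counts are given in the report. CPM used total counts, and a pseudocount of 0.5 was added before log2. Of 115 libraries, 1 whose title and labels disagree was left out. All 15274 genes were fitted with edgeR 4.0.16 (quasi-likelihood test, TMM) in R 4.3.3. The luteal against follicular, follicular breed and interaction comparisons used all mapped libraries and 12 group means. The luteal breed comparisons used a separate fit of the 37 luteal libraries with 4 group means. Genes were called at a Benjamini-Hochberg adjusted p under 0.05 and a fold change above 1.5. SEs are the log2 difference divided by the square root of F. P-values measure the spread between ewes. Named genes were all members with a known symbol, the 2 unnamed ones of highest score, the 3 named ones of smallest p per comparison and members of the fixed lists. Alternatives were DESeq2 1.42.0, other scaling, filters and pseudocounts, a replicate block and libraries left out. Scripts were tested on simulated counts. Within groups, 490 library pairs differed beyond sampling noise (lowest chi-square per degree of freedom 16.0). Sequences were not used here.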

Additional observations from a re-analysis of the deposited data

Results flagged for a closer look

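Single ewes that lay far from the rest of their group were looked for in 17 genes and 187 groups, by the gap to the nearest ewe relative to the range, and 28 were found, where chance flags about 1 in 20 groups. Fur luteal ewe 8 was lowest for TNFRSF6B (1.92 CPM), MFSD2A (4.56 CPM), KCNK6 (1.40 CPM) and AC008397.1 (9.23 CPM), and highest for FSTL5 (0.778 CPM). Suffolk luteal ewe 7 was highest for PADI6 (3.40 CPM), FXYD4 (5.84 CPM) and ANGPTL2 (260.3 CPM). Belclare luteal ewe 7 was lowest for TNFRSF6B (1.84 CPM) and ANGPTL2 (17.6 CPM) and highest for CKMT1B (101 CPM). NWS induced follicular ewe 7 was lowest for CKMT1B (9.72 CPM) and ANGPTL2 (45.8 CPM).

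Other ewes stood apart in 1 gene each. IGHE was highest in Belclare natural follicular ewe 5 (12.7 CPM) and lowest in Fur induced follicular ewe 2 (0.176 CPM). CCL26 was highest in Fur natural follicular ewe 2 (5.36 CPM). FXYD4 was highest in Fur luteal ewe 4 (5.30 CPM) and NWS luteal ewe 8 (4.82 CPM). SLC16A5 was lowest in NWS natural follicular ewe 2 (6.69 CPM) and ANGPTL2 in Fur induced follicular ewe 3 (43.7 CPM). KCNK6 was lowest in Suffolk natural follicular ewe 6 (4.33 CPM) and highest in NWS luteal ewe 6 (8.30 CPM). MT-ND6 was highest in Fur luteal ewe 6 (23.3 CPM), DAGLA in Belclare luteal ewe 3 (33.1 CPM) and AC008397.1 in NWS induced follicular ewe 4 (171 CPM). ENSOARG00000011377 was lowest in Belclare induced follicular ewe 10 (0.885 CPM), NWS induced follicular ewe 2 (0.461 CPM) and NWS luteal ewe 3 (0.705 CPM).

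The luteal minus follicular difference itself differed between Norwegian and Irish ewes for MT-ND6, by 0.83 (log2), and for ENSOARG00000000313, by 0.84, in the interaction term of the edgeR fit.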

How the results depend on the processing

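With no fold change threshold 95 genes were called lower and 19 higher in luteal than follicular cervix, in place of 70 and 7, and the total of 77 was 77 or 79 under the other alternatives run. With the fold threshold kept, 70 lower and 7 higher genes were shared with each of them, apart from 69 lower with the replicate number as a block. The chosen genes were less stable: 60 were chosen again with medians over ewes and 76 without the Irish libraries over 1000 CPM of DES. Belclare against Suffolk gave 17 called genes in luteal ewes and 6 with the replicate block. With no filter on low counts it gave 11, with 9 lower and 2 higher, against 1.78% and 1.49% of the genes then fitted. Norwegian against Irish breeds gave 29 in luteal ewes, 17 with the replicate block and 18 without the 3 luteal libraries that stood apart. In follicular ewes this comparison gave 39. With no fold change threshold it gave 70 there, with 52 lower and 18 higher, against 29.6% and 28.8% of all tested genes. The interaction gave 2. By the DESeq2 Wald test it gave 4, with 3 higher and 1 lower, against 0.354% and 0.229% of tested genes. It gave 1 higher with the replicate block (0.124%) and 1 higher without the 3 luteal libraries (0.21%). The luteal difference of MT-ND6, -0.03, was 0.0036 without the Irish libraries over 1000 CPM of DES. The cause of these changes was not tested. The other 49 summary values were counts that stayed within 1.5-fold of the main one, which does not mean unchanged. The other 104 values of single genes kept their direction and side of the threshold. Same-numbered ewes of different groups are different animals, and the median correlation of their deviations was -0.0116 over 590 pairs, against 0.000657 for other numbers, so the block is given as an alternative only. The alternatives that leave out the DES-rich libraries, the 2 NWS libraries of low COX-1 or the 3 luteal libraries were chosen after seeing the data. Low levels, such as those of FSTL5 in luteal cervix, limit what these depths can show.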

Other observations

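One Suffolk library, titled as natural follicular but labelled as induced and luteal, entered no group. Its mean over the 150 genes was 2.71 (log2(CPM + 0.5)). It had ANGPTL2 at 82.9 CPM, PADI6 at 0.0650 CPM, FSTL5 at 0.910 CPM, ENSOARG00000006710 at 92.5 CPM and DES at 707 CPM.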
